A study of Capra hircus with 12 samples.

Results

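The miR-143 and miR-145 cluster comprised 4 mature miRNAs in the sequencing data, chi-miR-143-3p, chi-miR-143-5p, chi-miR-145-5p and chi-miR-145-3p. They were chosen by name, as both arms of both precursors, and are 4 of the 376 miRNAs quantified. The samples were secondary hair follicles (SHFs), the small follicles that produce cashmere, dissected under a microscope from scapular skin of Liaoning cashmere goats aged 1.5 years. Small RNA was sequenced in 12 libraries, with 1 female and 1 male library in each of 6 months and no treatment or genetic modification. February and March represented telogen, the resting phase (4 libraries), May and September the early and middle parts of anagen, the growth phase (2 libraries each), and November and December catagen, the regression phase (4 libraries). Each time point had 3 male and 3 female goats, and how they were combined into libraries is not given in the sources used here, so p-values measure the spread between these libraries. Because each phase is also a season, phase and season cannot be told apart.

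A miRNA precursor is a hairpin whose 5′ and 3′ strands can each become a mature miRNA, named 5p and 3p. Usually one strand, the guide, is loaded into the silencing complex and accumulates, and the other, the passenger, is degraded. The miR-143 and miR-145 hairpins lie close together in vertebrate genomes and are transcribed as one primary transcript, which is best known from smooth muscle and other mesenchymal cells, where both miRNAs act on genes of contractile differentiation. In the RefSeq annotation of goat assembly ARS1.2, 0 genes lay between MIR145 and MIR143, with CSNK1A1 (a casein kinase gene) next to MIR145 and IL17B (a cytokine gene) next to MIR143. That assembly is not the one the authors mapped to, so only the order of the genes is used.

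The depth was 3135292 to 5788032 counts on miRNAs per library. Levels are given as the deposited TPM, the count scaled to the library total with no correction for length, and as TMM-normalized CPM, where a scaling factor corrects for the composition of the library. This choice matters here, since the TMM factors ranged from 0.813 in the female November library to 1.29 in the male May library. The tissue was checked against marker miRNAs of other cell types. Epithelial miR-203 was at 63230 ± 12787 TPM and mesenchymal miR-199a-3p at 14675 ± 6492 TPM (SD, n = 12), endothelial miR-126-3p was at 9692 ± 1222 TPM and muscle miR-1 at 2766 ± 610 TPM. Leukocyte miR-155-5p was at 316 ± 49.2 TPM and erythrocyte miR-451-5p at 23.6 ± 19.5 TPM. Epithelial miR-205 was looked for and not found under that name, so it could not be used in this check. In such bulk samples, fewer cells of a type and less RNA per cell cannot be told apart.

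The 4 arms together took 7.10% of the counts in the male March library to 11.7% in the female December library, with a mean of 9.58% ± 1.61 (SD, n = 12). Nearly all of this was chi-miR-143-3p, the guide strand of miR-143, at 89983 ± 15574 TPM, which ranked between 2 and 6 among the 376 miRNAs in every library. chi-miR-145-5p, the guide strand of miR-145, was at 4903 ± 1051 TPM. The passenger strands were at similar levels to each other, with 381 ± 135 TPM for chi-miR-143-5p and 502 ± 60.2 TPM for chi-miR-145-3p.

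chi-miR-143-3p was at its lowest mean in May and its highest in September on both scales. In telogen its TPM was 83255 and 92272 in the female and male libraries of February, and 92526 and 67084 in those of March. In anagen it was 70711 and 69049 in May, and 109577 and 109071 in September. In catagen it was 89581 and 99971 in November, and 110365 and 86329 in December. Both September libraries thus lay above all telogen and May libraries, while telogen and catagen overlapped on this scale. The male March library was the lowest of the 12, and the same library had the least miR-1 (1627 TPM) and the most miR-451-5p (77.2 TPM). Whether these have a part in its level was not tested.

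With TMM scaling the spread between months was wider. The mean of chi-miR-143-3p was 124418 CPM in September, 114131 in November, 110147 in December, 81718 in February, 71704 in March and 55156 in May, so that the highest month exceeded the lowest by 2.26 times. November and December overlapped, as did February with March and March with May. Every library of September to December (99848 CPM or more) lay above every library of February to May (88949 CPM or less). The TMM factors split the same way, at 0.813 to 0.916 in September to December and 1.01 to 1.29 in February to May. Dividing by them raises the former libraries relative to the latter for every miRNA alike. On TPM these libraries overlapped, with 92526 in the female March library and 86329 in the male December library. How many of the 300 miRNAs tested separate in this way under TMM was not counted.

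**Figure D1:**
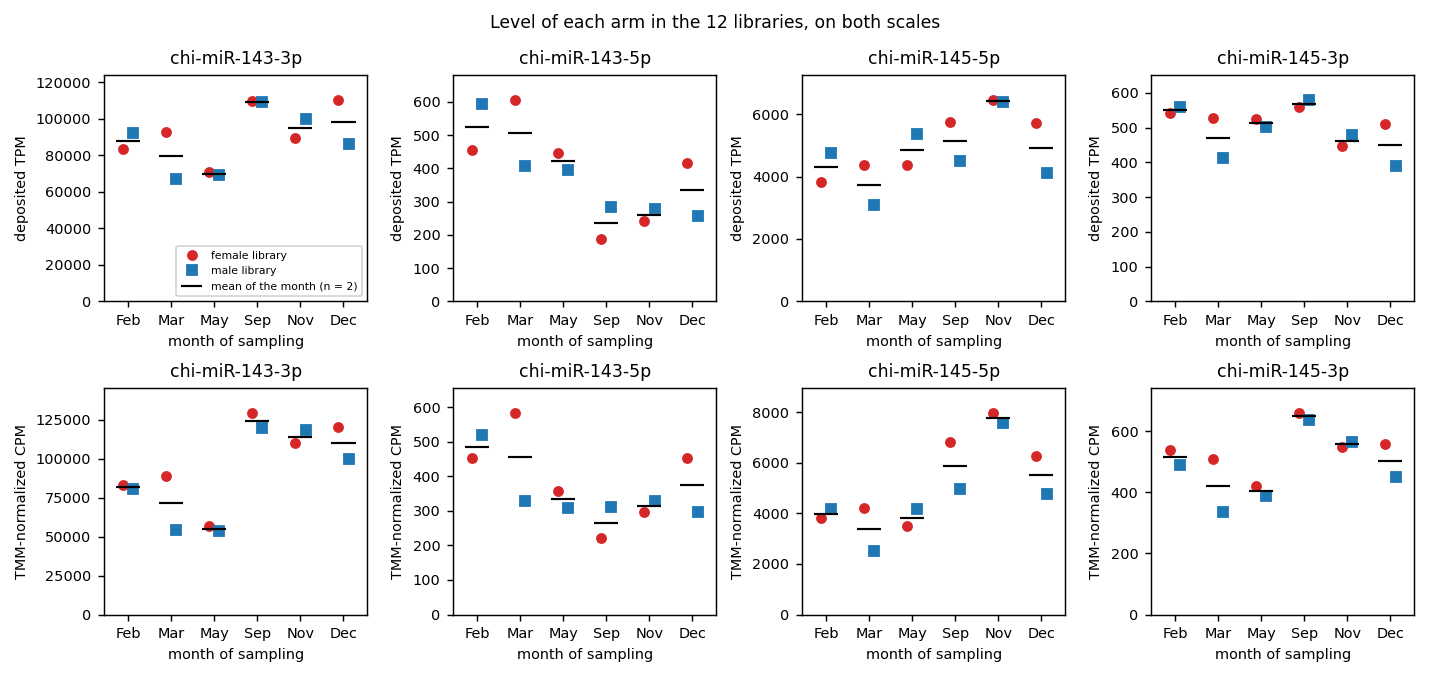
Levels of the 4 arms in the 12 libraries by month, as deposited TPM (upper row) and TMM-normalized CPM (lower row), each axis starting at 0. Circles are female libraries, squares male libraries and lines the mean of the month (n = 2); chi-miR-143-3p is lowest in May (55156 CPM) and highest in September (124418 CPM), and chi-miR-143-5p has its lowest mean in September (266 CPM).

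From May to September, chi-miR-143-3p rose 2.26-fold (log2 fold change 1.17, SE 0.20), with an adjusted p of 0.00131 by edgeR's quasi-likelihood test with Benjamini-Hochberg adjustment over the 300 miRNAs tested. It was the only one of the 4 arms with an adjusted p under 0.05 and at least a 2-fold change, the rule for a call, and 18.3% of the 300 miRNAs were called in this comparison. Leaving out the female May library lowered the difference to 0.97 and thereby below 2-fold (adjusted p = 0.0226). When the adjusted p alone is read, chi-miR-145-3p joined it with a rise of 0.68 (SE 0.21, adjusted p = 0.0252), so 2 of 4 arms passed where 34% of all miRNAs did. The pass of chi-miR-145-3p was lost without the female March (adjusted p = 0.0550), female May (0.49, adjusted p = 0.211), male May (adjusted p = 0.152), female September (adjusted p = 0.105) or male September library (adjusted p = 0.0723), and with library totals its value was 0.15 (adjusted p = 0.545). chi-miR-145-5p, at 0.62 (adjusted p = 0.108), passed in a fit of only these 2 groups, at 0.52 (adjusted p = 0.0155).

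From May to catagen, chi-miR-143-3p was 2.03-fold higher in catagen (log2 1.02, SE 0.17, adjusted p = 0.00109, edgeR) and again the only arm called, against 16.7% of all miRNAs. This difference lies at the 2-fold limit and fell below it without the female March (0.94), male March (0.91), female May (0.85), male May (0.97) or male November library (0.998). At any fold change chi-miR-145-5p also passed, with 0.79 (SE 0.25, adjusted p = 0.0242), so that 2 of 4 arms stood against 37% of all miRNAs. That pass was lost without the female May (0.46, adjusted p = 0.319), male May (adjusted p = 0.0886), female November (adjusted p = 0.0589) or male November library (adjusted p = 0.0555), and with library totals the value was 0.22 (adjusted p = 0.407).

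From catagen to telogen, the guide strands of both precursors fell under TMM scaling. The log2 fold change was -0.55 for chi-miR-143-3p (SE 0.14, adjusted p = 0.00873) and -0.85 for chi-miR-145-5p (SE 0.20, adjusted p = 0.00613) by edgeR's quasi-likelihood test. Neither reached 2-fold with all libraries, so 0 of 4 arms were called where 10.7% of miRNAs were, and 2 of 4 passed at any fold where 35% did. Without the male December library, chi-miR-145-5p reached -1.002 and was called. With library totals chi-miR-143-3p was at -0.20 and did not pass (adjusted p = 0.175, edgeR), and chi-miR-145-5p was at -0.50 (adjusted p = 0.0385). The passenger strands gave 0.45 for chi-miR-143-5p (adjusted p = 0.0923) and -0.18 for chi-miR-145-3p (adjusted p = 0.341), and did not pass. chi-miR-143-5p passed under RLE normalization (0.55, adjusted p = 0.0460), with DESeq2 (0.55, adjusted p = 0.0287), and in edgeR without the male March (0.64, adjusted p = 0.0170) or female December library (0.60, adjusted p = 0.0363).

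Telogen and September differed in opposite directions for the 2 arms of miR-143. chi-miR-143-3p was higher in September by 0.70 on the log2 scale (SE 0.16, adjusted p = 0.0111) and chi-miR-143-5p lower, with -0.82 (SE 0.25, adjusted p = 0.0294), both by edgeR. Neither reached 2-fold, so 0 of 4 arms were called against 9.33% of miRNAs, and 2 of 4 passed at any fold against 25.3%. The arms of miR-145 were just outside, at 0.68 for chi-miR-145-5p (adjusted p = 0.0515) and 0.47 for chi-miR-145-3p (adjusted p = 0.0677). Which arms passed depended on the libraries and the fit. Without the female September library neither arm of miR-143 passed, with 0.64 for chi-miR-143-3p (adjusted p = 0.1196) and -0.60 for chi-miR-143-5p (adjusted p = 0.270), so 0 of 4 arms did. In a fit of only these 2 groups the values were 0.68 (adjusted p = 0.0654) and -0.83 (adjusted p = 0.0821). Without the male March or the male September library, on the other hand, chi-miR-143-5p reached -1.04 and -1.09 and was called. With sex as a block all 4 arms passed at any fold, with 0.67 for chi-miR-145-5p (adjusted p = 0.0471) and 0.48 for chi-miR-145-3p (adjusted p = 0.0485), and without the male December library chi-miR-145-5p passed at 0.65 (adjusted p = 0.0428).

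In the other phase comparisons none of the 4 arms passed by edgeR at any fold with all 12 libraries. From telogen to May, 2.33% of miRNAs were called and 5.33% passed at any fold, and the values of the arms were between -0.50 for chi-miR-143-5p (adjusted p = 0.198) and 0.06 for chi-miR-145-5p (adjusted p = 0.884). Without the male March library chi-miR-143-3p passed at any fold, with -0.54 (adjusted p = 0.00922) against -0.48 with all libraries (adjusted p = 0.0959). From September to catagen, edgeR called 0% of the 300 miRNAs with or without a minimum fold, with 23 of them at an unadjusted p under 0.05, and DESeq2 and edgeR with RLE normalization called 1 each. The arms lay between -0.29 for chi-miR-145-3p (adjusted p = 0.880) and 0.37 for chi-miR-143-5p (adjusted p = 0.880).

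Library totals, used instead of TMM, gave smaller changes for chi-miR-143-3p, with 0.65 from May to September (adjusted p = 0.0095), 0.47 from May to catagen (adjusted p = 0.0211), 0.38 from telogen to September (adjusted p = 0.0585) and -0.20 from catagen to telogen (adjusted p = 0.175), all by edgeR. On that scale the median of all 300 miRNAs was itself at -0.46 from May to September, -0.47 from May to catagen, -0.29 from telogen to September and 0.35 from catagen to telogen, whereas under TMM these medians were between 0.00 and 0.08. Relative to the median, chi-miR-143-3p differed by 1.101 with library totals and 1.108 with TMM from May to September, and by 0.93 and 0.94 from May to catagen. These pairs are close by construction, since a scaling factor shifts all miRNAs of a library alike, and do not bear on the rise itself. For chi-miR-145-5p from catagen to telogen, the change relative to the median was -0.85 under both. Its change on library totals alone was -0.50 (adjusted p = 0.0385).

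**Figure D2:**
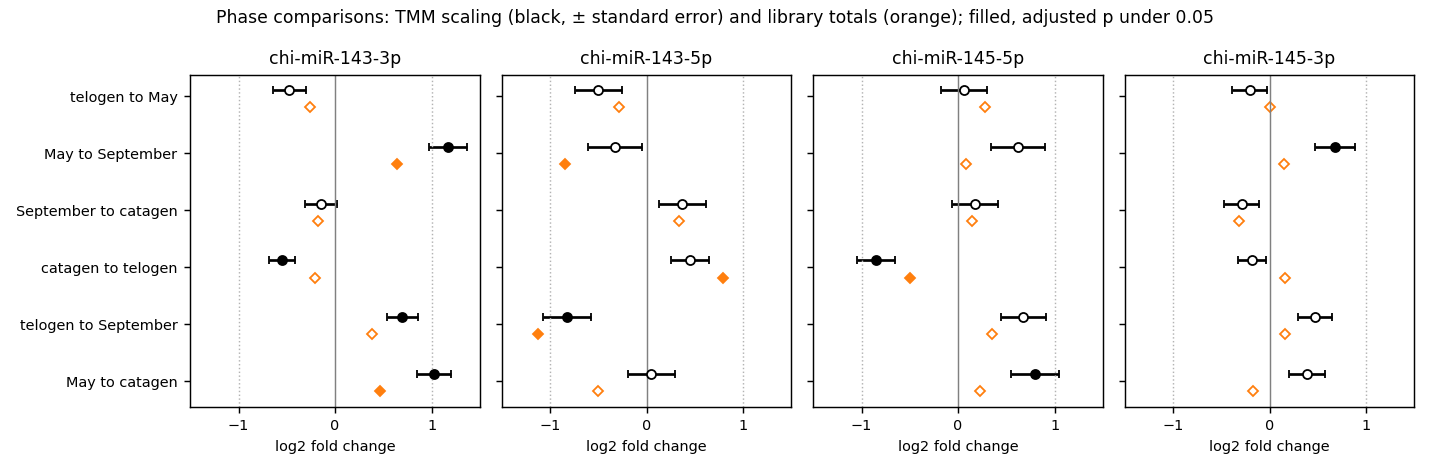
Log2 fold changes of the 4 arms in the 6 phase comparisons, with TMM scaling (black circles, bars ± SE) and with library totals (orange diamonds), filled where the adjusted p is under 0.05; dotted lines mark 2-fold. chi-miR-143-3p lies at 1.17 under TMM and 0.65 with library totals from May to September, and chi-miR-143-5p at -0.82 and -1.13 from telogen to September.

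chi-miR-143-5p, the passenger strand of miR-143, did not follow its guide strand. Its TPM in the female and male libraries was 454 and 593 in February, 607 and 406 in March, and 447 and 396 in May. It was 188 and 283 in September, 242 and 278 in November, and 415 and 256 in December. All 6 libraries of telogen and May therefore lay above both September libraries and 3 of the 4 catagen libraries, and the female December library overlapped with them. Under TMM scaling the months overlapped more, with means from 485 CPM in February to 266 CPM in September, and only telogen and September stood apart. The fall from telogen to September passed on both scales, with -0.82 under TMM and -1.13 with library totals (adjusted p = 0.0111, edgeR), where it was also called, although the former was lost without the female September library (-0.60, adjusted p = 0.270) or in a fit of only these 2 groups (adjusted p = 0.0821). From May to September it passed with library totals only, with -0.84 (adjusted p = 0.0367) against -0.32 under TMM (adjusted p = 0.391). From catagen to telogen it passed with library totals, with 0.79 (adjusted p = 0.0113), and not under TMM.

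The ratio of the 2 arms of a precursor within a library does not depend on how libraries are scaled. For miR-143, the 3p arm had 183 counts per 5p count in the female February library and 156 in the male one, 153 and 165 in March, and 158 and 174 in May. It had 584 and 385 in September, 370 and 359 in November, and 266 and 338 in December. Hence the 6 libraries of February to May lay within 153 to 183, and each of the 6 libraries of September to December, at 266 to 584, lay above them. How many other precursors separate the same libraries was not counted, so this split is not shown to be particular to miR-143. By limma at an adjusted p under 0.05, 40.2% of the 82 precursors changed from May to September and 39% from telogen to September. The share was 43.9% from May to catagen and 48.8% from catagen to telogen. By the range between group means of the log2 ratio, miR-143 was at place 18 of the 82 precursors with both arms tested. As a share of miR-143 counts, the 5p arm made up 0.651% in the female March library (95% Wilson interval 0.629 to 0.675) and 0.171% in the female September library (0.161 to 0.182). These intervals cover counting error only.

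The log2 ratio of 3p to 5p was tested by limma over the 82 precursors with both arms tested. For miR-143 it rose by 1.51 from May to September (SE 0.30, adjusted p = 0.000472), by 1.53 from telogen to September (SE 0.26, adjusted p = 0.000198) and by 0.99 from May to catagen (SE 0.26, adjusted p = 0.00374). It fell by 1.01 from catagen to telogen (SE 0.21, adjusted p = 0.00122). The values from telogen to May (0.02, adjusted p = 0.965) and from September to catagen (-0.52, adjusted p = 0.771) did not pass. The 3p arm thus took a larger part of miR-143 counts in September and catagen than in telogen and May. Of the called values, only that from May to catagen was lost when one library was left out, at 0.92 without the female May library (adjusted p = 0.0524).

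Changes of arm ratios were common in these libraries. Of the 82 precursors, 40.2% passed from May to September, 39% from telogen to September, 43.9% from May to catagen, 48.8% from catagen to telogen and 9.76% from telogen to May. From September to catagen limma called 0%, with 4 precursors at an unadjusted p under 0.05. Of the 2 precursors of the cluster, miR-143 passed in the first 4 of these comparisons and miR-145 only from catagen to telogen. By the size of the change, miR-143 was at place 17 of the 82 from May to September, 7 from telogen to September, 15 from catagen to telogen and 26 from May to catagen. The median change over all precursors was 0.27 from May to September and -0.17 from catagen to telogen.

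**Figure D3:**
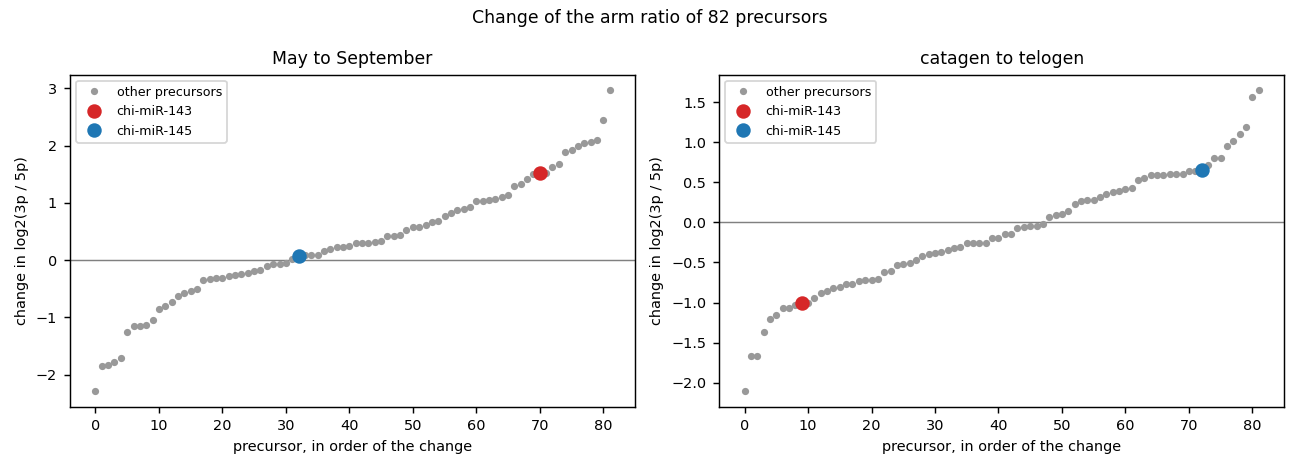
Change in log2(3p / 5p) of the 82 precursors, placed in order of the change, from May to September (left) and from catagen to telogen (right). miR-143 lies at 1.51 and -1.01, toward the ends of both series, and miR-145 at 0.07 and 0.65.

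chi-miR-145-5p had its highest month in November on both scales. Its TPM in the female and male libraries was 3829 and 4770 in February, 4388 and 3103 in March, and 4363 and 5362 in May. It was 5772 and 4518 in September, 6472 and 6413 in November, and 5731 and 4111 in December. Both November libraries lay above the other 10, and each pair of the 4 groups overlapped, with the male December library within the telogen range. Under TMM scaling the mean was 7768 CPM in November and 3369 CPM in March, 2.31 times apart, and all September and catagen libraries (4755 CPM or more) lay above all telogen and May libraries (4219 CPM or less). The TMM factors split the libraries in the same way, and how many of the 300 miRNAs tested do so was not counted.

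chi-miR-145-3p, the passenger strand of miR-145, had the smallest ratio of highest to lowest month among the arms. Its TPM in the female and male libraries was 542 and 559 in February, 528 and 413 in March, and 525 and 500 in May. It was 559 and 580 in September, 446 and 479 in November, and 509 and 388 in December. The highest month (September) exceeded the lowest (December) by 1.27 times on this scale, and the September libraries lay above those of May and catagen. Under TMM scaling, September was again the highest month, at 648 CPM, and May the lowest, at 405 CPM, with all neighbouring months in the order from February downward overlapping. The direction of its changes depended on the scaling, since from May to catagen it was at 0.39 under TMM (adjusted p = 0.108) and -0.17 with library totals.

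Within miR-145 the guide strand is the 5p arm, opposite to miR-143. It had 7.06 and 8.54 counts per 3p count in the female and male libraries of February, 8.30 and 7.51 in March, and 8.31 and 10.7 in May. It had 10.3 and 7.78 in September, 14.5 and 13.4 in November, and 11.2 and 10.6 in December. All 4 telogen libraries lay below all 4 catagen libraries. The female May and male September libraries lay within the telogen range, and the male May and female September libraries lay above it. September lay below catagen, and May overlapped with it. From catagen to telogen the log2 ratio of 3p to 5p rose by 0.65 (SE 0.21, adjusted p = 0.0175, limma). That call was lost without the female November library, at 0.58 (adjusted p = 0.0632). Hence both precursors had a larger share of the passenger strand in telogen than in catagen. From May to September, where the ratio of miR-143 rose, that of miR-145 was at 0.07 (adjusted p = 0.851).

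**Figure D4:**
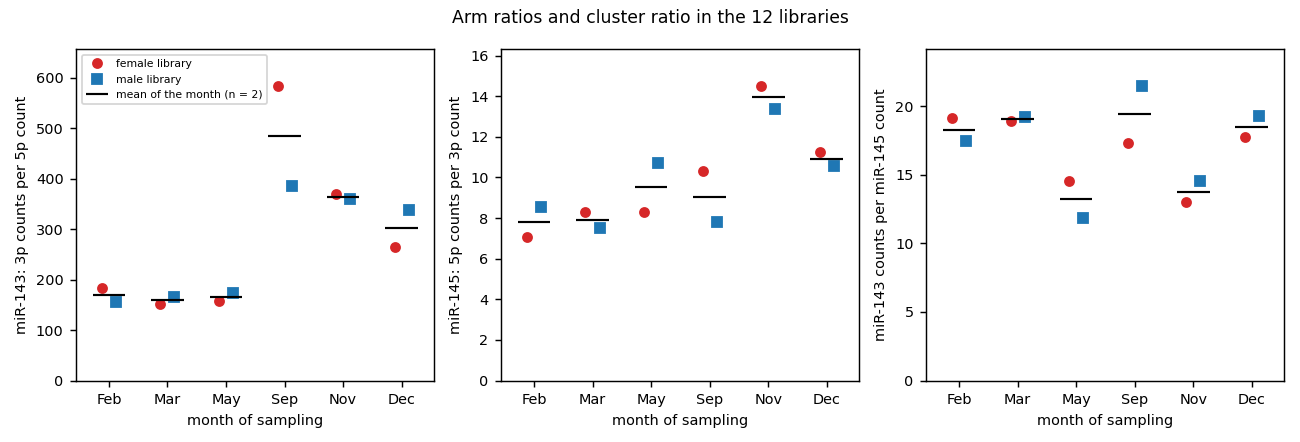
Arm ratios of miR-143 (3p counts per 5p count) and miR-145 (5p counts per 3p count) and the ratio of miR-143 to miR-145 counts in the 12 libraries by month, each axis starting at 0. Circles are female libraries, squares male libraries and lines the mean of the month (n = 2). The miR-143 ratio is 153 to 183 in February to May and 266 to 584 in September to December. How many other precursors separate these libraries in this way was not counted. The ratio of the 2 miRNAs ranges from 11.8 to 21.5.

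With both arms summed, miR-143 had between 11.8 (male May) and 21.5 counts (male September) per miR-145 count, with a mean of 17.0 ± 2.92 (SD, n = 12). In the female and male libraries the ratio was 19.2 and 17.4 in February, 18.9 and 19.2 in March, 14.6 and 11.8 in May, 17.3 and 21.5 in September, 13.0 and 14.5 in November, and 17.8 and 19.2 in December. May and November had the lowest ratios, and each of their 4 libraries lay below the other 8. These months were put together after the values were seen, and this split was not tested. Catagen was therefore split by month, with November below all telogen libraries and December at 17.8 and 19.2, close to the telogen values of 17.4 to 19.2. From catagen to telogen the ratio differed by 1.17-fold (log2 0.23), which did not pass (p = 0.257, two-sided exact permutation test, where 0.0286 is the smallest p that 4 against 4 libraries allow).

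Over the 4 groups, the share of variance between groups was tested by exact permutation over 207900 arrangements of the 12 libraries, for 3 ratios. The arrangements took no account of month or sex. If libraries of the same month are more alike than others, these p-values are too small. By this exact test the share was 92.4% for the log2 arm ratio of miR-143 (p = 0.000269, adjusted p = 0.000808), 72.6% for that of miR-145 (p = 0.0141, adjusted p = 0.0211) and 59.3% for the ratio of the 2 miRNAs (p = 0.0652, adjusted p = 0.0652). The last did not pass, although it did without the female September (p = 0.0426), female November (p = 0.0466) or male December library (p = 0.0326) in the same exact test.

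Over the 12 libraries and under TMM scaling, the guide strand of miR-143 varied together with both arms of miR-145. Its own passenger strand did not vary with it. Such likeness was not particular to the cluster, since other miRNAs were more like chi-miR-143-3p than either arm of miR-145 was. On log2 TMM-normalized CPM, chi-miR-143-3p had a Pearson r of 0.90 with chi-miR-145-3p (permutation p = 5e-05, adjusted p = 0.0003 over 6 pairs), a Spearman rho of 0.92 (adjusted p = 0.00054) and an r of 0.82 without the 2 libraries farthest from the median. With chi-miR-145-5p, r was 0.83 (permutation p = 0.00076, adjusted p = 0.00228), rho 0.81 (adjusted p = 0.0063) and r without those 2 libraries 0.82. The 2 arms of miR-145 had an r of 0.76 (permutation p = 0.00473, adjusted p = 0.00946), a rho of 0.77 (adjusted p = 0.00958) and 0.61 without 2 libraries. The 2 arms of miR-143 had an r of -0.17 and a rho of -0.28 (permutation p = 0.585, adjusted p = 0.702), and chi-miR-143-5p also did not pass with chi-miR-145-3p (r = -0.10) or chi-miR-145-5p (r = -0.32).

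All 4 arms of a library share its scaling factor, and these relations depended on it. With library totals 0 of the 6 pairs passed by permutation, adjusted or not, and the r of chi-miR-143-3p was 0.42 with chi-miR-145-3p (permutation p = 0.181) and 0.54 with chi-miR-145-5p (permutation p = 0.0727). Within phases, taken as deviations from the group means under TMM, 5 of 6 pairs passed by Pearson r, among them chi-miR-143-3p with chi-miR-143-5p at 0.72 (permutation p = 0.00648, adjusted p = 0.00972). Only chi-miR-143-3p with chi-miR-145-3p (r = 0.95) also passed by rho (0.93, adjusted p = 0.0003). Without the male March and male December libraries, the r within phases of the 2 arms of miR-143 was 0.43 and that of chi-miR-143-3p with chi-miR-145-5p was 0.31, so these rest on those 2 libraries.

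**Figure D5:**
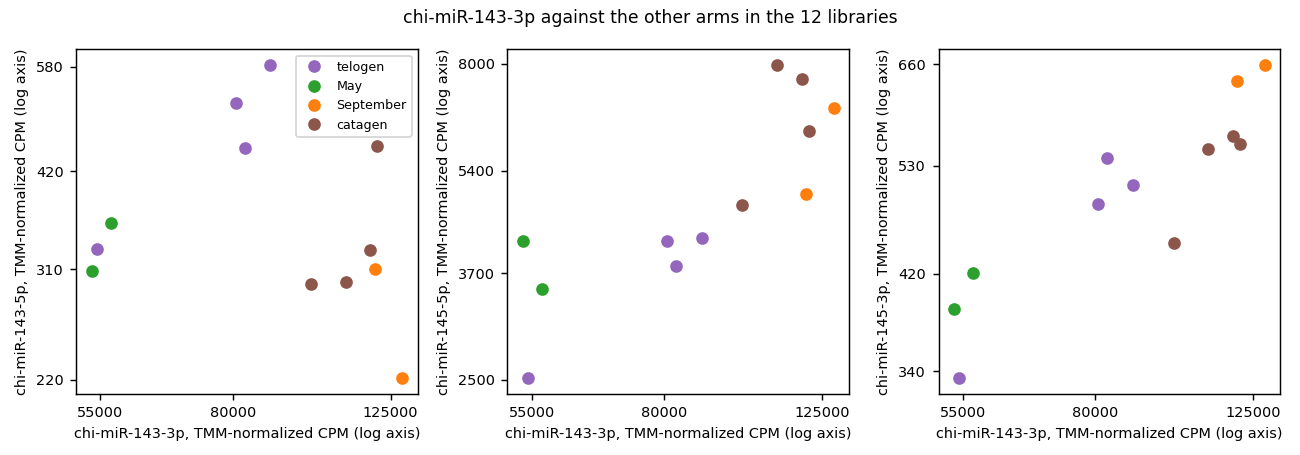
chi-miR-143-3p (x axis) against chi-miR-143-5p, chi-miR-145-5p and chi-miR-145-3p (y axes) in the 12 libraries, as TMM-normalized CPM on log axes, coloured by phase. The points of chi-miR-145-5p (r = 0.83) and chi-miR-145-3p (r = 0.90) rise with chi-miR-143-3p, and those of chi-miR-143-5p do not (r = -0.17).

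Among the other tested miRNAs, the pattern most like chi-miR-143-3p over the 12 libraries was that of miR-1 (r = 0.94 under TMM and 0.86 on TPM, first on both scales), a miRNA of striated and smooth muscle. It was followed under TMM by miR-28-3p (0.94), miR-30e-3p (0.93), miR-192-5p (0.92) and the epithelial miR-200a (0.91). In this order chi-miR-145-3p stood at place 14 and chi-miR-145-5p at place 24 (35 and 22 on TPM). For chi-miR-145-3p the most alike were miR-1 (0.91), chi-miR-143-3p (0.90), miR-200a (0.87), miR-191-5p (0.84) and miR-28-3p (0.83). For chi-miR-145-5p they were miR-10a-5p (0.89), miR-7-5p (0.88), miR-1 (0.86), chi-miR-143-3p (0.83) and miR-320-3p (0.82). miR-1 was thus among the most alike of these 3 arms. For chi-miR-143-5p they were others, miR-151-5p (0.90, and 0.97 on TPM), miR-374a-5p (0.84), miR-101-5p (0.84), miR-29a-3p (0.83) and miR-141 (0.82), and chi-miR-143-3p stood at place 172. These likenesses are descriptions of 12 libraries that share depth and scaling.

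Muscle is one of the other tissues that the samples could hold. Of 6 muscle miRNA names, 5 were found, with 6 arms, and their summed level was 1902 to 3614 TPM in telogen, 2113 to 2745 in May, 3389 to 3461 in September and 2466 to 3553 in catagen, with miR-206 at 0 in its lowest library. Their sum was higher in both September libraries than in both May libraries, as chi-miR-143-3p was, but most of it was miR-1. The median log2 fold change of the 5 muscle arms tested was -0.19 from May to September and -0.59 from telogen to September, and the part of the list in the level of chi-miR-143-3p was not tested. Of the 5 muscle arms tested, 1 was called higher from May to September and from May to catagen, which was chi-miR-1 (log2 1.19 and 1.12, adjusted p = 0.0146 and 0.0105, edgeR), and 0 in the other phase comparisons.

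On summed TPM, the mesenchymal list (miR-199a, miR-199b and miR-214, 5 arms) had the opposite order of phase means to chi-miR-143-3p. The miR-214 arms held little of this sum, at means of 47.6 and 81.9 TPM. The summed level of the list was 60124 to 65281 TPM in May, 35417 to 53247 in telogen, 23075 to 31867 in catagen and 25183 to 26400 in September. By edgeR's adjusted p at any fold, 3 of its 5 arms fell and 1 rose from May to September, and 3 rose from catagen to telogen, where chi-miR-143-3p fell. From telogen to May, with chi-miR-143-3p at -0.48, 0 of the 5 arms rose and 1 fell, with a median log2 fold change of 0.23. chi-miR-199a-3p, the most abundant arm of this list, fell by 0.85 on the log2 scale from May to September (SE 0.19, adjusted p = 0.00677, edgeR). The epithelial list (6 of 7 names) had a summed level of 81375 to 88411 TPM in May and 56735 to 72600 TPM in September, so these sums, most of which were miR-203, did not overlap. Under TMM, however, its 6 arms had a median log2 fold change of 0.21 between these months, with 1 called higher and 0 lower. The leukocyte list had sums of 416 to 434 and 415 to 588 TPM. Under TMM its direction was that of chi-miR-143-3p in some comparisons and not in others. From May to September its 4 arms had a median of 0.94, with 1 called higher and 2 higher at any fold, and from telogen to May a median of -1.04, with 2 called lower. From catagen to telogen, where chi-miR-143-3p fell, the median of the list was 0.42, with 1 called higher and 2 higher at any fold. From telogen to September, where chi-miR-143-3p rose, the median of the list was -0.10, with 0 called. For endothelial miR-126 the sums were 9177 to 9686 and 9135 to 10220 TPM, and for the erythrocyte list 24.6 to 45.9 and 16.6 to 28.3 TPM. The part of these lists in the changes of the cluster was not tested.

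None of the 4 arms passed the test between female and male libraries. With month as a term in the fit, the log2 difference of male from female libraries was -0.18 for chi-miR-143-3p (SE 0.11, adjusted p = 0.543), -0.14 for chi-miR-143-5p (SE 0.17, adjusted p = 0.842), -0.21 for chi-miR-145-5p (SE 0.13, adjusted p = 0.543) and -0.19 for chi-miR-145-3p (SE 0.11, adjusted p = 0.515), each with 6 libraries per sex. edgeR called 0% of the 300 miRNAs between the sexes, with 34 at an unadjusted p under 0.05, and DESeq2 called 0 with 26 at an unadjusted p under 0.05. The difference between the sexes in telogen was also set against that in catagen, and none of the 4 arms passed, with adjusted p between 0.637 and 0.987 (edgeR).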

How the data were processed

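SHFs were sequenced in 12 small RNA libraries, and a library counted as 1 replicate within its phase. The authors trimmed adapters, mapped reads to CHIR_2.0, used miREvo and mirDeep2 to identify miRNAs, and took abundances from Bowtie 0.12.9 (version per the submitters' processing notes). They deposited raw counts of 376 miRNAs per library. The deposited TPM differs from the count rescaled to the library total by at most 0.005. How reads matching several miRNAs were assigned is not given in the sources used here. Libraries held 3135292 to 5788032 counts (median 4469051), so counting error was small for these arms. Libraries of the same month differed by 65.2 to 635 times the chi-square of sampling noise per degree of freedom, so none was taken as a repeat deposit.

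Counts were fitted in R 4.3.3 with edgeR 4.0.16 (TMM, glmQLFit and glmQLFTest, 4 groups sharing one estimate of the spread) for the 300 miRNAs above 5 CPM in at least 2 libraries. A call needed an adjusted p under 0.05 and at least 2-fold. Arm ratios were tested with limma 3.58.1 on log2((3p + 1)/(5p + 1)) of 82 precursors. Permutation tests used SciPy 1.17.1, with 100000 resamples for correlations. Standard errors of edgeR are the log2 fold change over the root of F. The fits were tested on simulated counts.

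The miRNAs named are the 4 arms, for each arm the 5 most alike by Pearson r on log2 TMM-normalized CPM (prior count 1), and the most abundant miRNA of 6 marker lists. miRNAs sharing a seed with an arm were also to be named, but sequences were not analysed here. miR-206, miR-205 and the gene names were added after the values were seen. The members and lists were chosen with earlier results of these data known. Alternatives were RLE normalization, library totals, DESeq2 1.42.0, no filter on CPM, no minimum fold, fits restricted to both groups of a comparison, sex as a block, another pseudocount (0.5) or minimum (50 counts) for arm ratios, and each library left out in turn. Target, RT-qPCR and imaging data were not used here.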

Additional observations from a re-analysis of the deposited data

Results flagged for a closer look

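Among 22 sets of 4 libraries looked at, 2 had a library far from the others, where chance gives about 1 in 20. In catagen, chi-miR-145-3p was at 449 TMM-normalized CPM in the male December library, below the other 3. In telogen, the log2 ratio of miR-143 to miR-145 counts was 4.12 in the male February library, below the other 3.

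Opposite directions of the female and the male libraries between phases were flagged in 6 measures, and these differences were not tested. They are not all such cases, since the log2 arm ratio of miR-143 also moved in opposite directions from telogen to May. chi-miR-143-5p changed by -137 TMM-normalized CPM in female and by 2.31 in male libraries from May to September, and by 141 TPM in female and -16.2 in male libraries from September to catagen. chi-miR-145-5p changed by -518 TMM-normalized CPM in female and by 825 in male libraries from telogen to May, and by 1409 TPM in female and -845 in male libraries from May to September. The log2 ratio of 3p to 5p of miR-145 changed by -0.32 in female and 0.46 in male libraries from May to September. The log2 ratio of miR-143 to miR-145 changed by -0.14 in female and 0.23 in male libraries from telogen to September. Each of the 6 rests on 1 library per sex in May or September, and the 3 from May to September on 1 library per sex in both phases. The male change of 2.31 was small beside the 308 TMM-normalized CPM of chi-miR-143-5p in the male May library.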

How the results depend on the processing

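The call of chi-miR-143-3p from May to catagen (1 arm) lies at the 2-fold limit, and 0 arms were called under RLE normalization (0.98), DESeq2 (0.98), no filter on CPM (0.94), only the 2 groups compared (0.83) or library totals (0.47), with the adjusted p under 0.05 in each. From May to September 0 arms were called with library totals, where 1 was from telogen to September. Without a minimum fold, 2 arms passed from May to September, telogen to September, May to catagen and catagen to telogen. Over all miRNAs, library totals turned the split of higher and lower calls from 29 and 26 to 9 and 71 from May to September, from 27 and 23 to 10 and 72 from May to catagen, from 14 and 14 to 4 and 38 from telogen to September, from 19 and 13 to 43 and 5 from catagen to telogen, and from 1 and 6 to 2 and 2 from telogen to May. The 7 miRNAs called from telogen to May became 15 with sex as a block, 12 with DESeq2, 4 with library totals and 0 with only those 2 groups, the 28 from telogen to September became 18 with only those 2 groups, and the 50 from May to catagen became 82 with library totals. The direction reversed for chi-miR-143-5p from May to catagen under RLE (-0.00013), library totals (-0.50), DESeq2 (-0.00016), no filter (-0.044) and only those 2 groups (-0.14), and for chi-miR-145-3p with library totals from telogen to May (0.0067), catagen to telogen (0.16) and May to catagen (-0.17). Of the 6 correlations, 3 passed, against 0 with library totals and 5 as deviations from group means, where the p-values can be too small. The sign reversed for chi-miR-143-5p with chi-miR-145-3p (0.25 and 0.64), with chi-miR-143-3p (0.72, deviations) and with chi-miR-145-5p (0.27, deviations). Leaving out 1 library in turn, calls ranged from 0 to 1 from May to September, catagen to telogen, telogen to September and May to catagen. Log2 changes near 0 changed sign, with ranges of -0.063 to 0.35 (chi-miR-145-5p, telogen to May), -0.037 to 0.42 (chi-miR-145-5p, September to catagen), -0.099 to 0.12 (chi-miR-143-5p, May to catagen), -0.050 to 0.089 (miR-143 arm ratio, telogen to May), -0.13 to 0.28 (miR-145 arm ratio, May to September) and -0.40 to 0.0090 (miR-145 arm ratio, telogen to September). Arm ratio calls ranged from 1 to 2 from catagen to telogen and 0 to 1 from May to catagen, and the share of variance of the ratio of miR-143 to miR-145 from 0.450 to 0.707 as a fraction. Sex as a block, the other pseudocount and the minimum of 50 counts changed no call of the 4 arms or 2 arm ratios, although with the block 4 arms in place of 2 passed at any fold from telogen to September. The causes were not tested. The 2 libraries each of May and September limit the precision more than depth does. No paired analysis was possible because the labels give no replicate numbers beyond sex, which was fitted as a block.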
